A study of Homo sapiens with 9 samples.

Results

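Inflammatory cytokine genes, the receptor gene TREM1 and targets of the transcription factor NF-kB were examined in the human hepatocellular carcinoma (HCC) cell line MHCC97L and in lines made resistant to a drug. The genes were 43 of the 20030 in the count table, chosen by symbol for their role and read in all 9 libraries. The groups were untreated MHCC97L, MHCC97L-SRC and MHCC97L-OXA, with 3 libraries each. MHCC97L-SRC was grown in rising amounts of saracatinib, an inhibitor of the kinase SRC, until it was stably resistant to 4 μmol/L. MHCC97L-OXA was stably resistant to 2 μmol/L of oxaliplatin, a platinum drug that damages DNA. All 3 lines come from a single cell line and were kept in DMEM with fetal bovine serum. The labels give the treatment as none for MHCC97L, oxaliplatin for MHCC97L-OXA and saracatinib for MHCC97L-SRC. No source used here states whether a drug was in the medium at harvest, so resistance and drug treatment cannot be told apart. The labels do not state whether the 3 libraries of a line came from separate cultures, so the p-values measure the spread between these libraries, which may be technical. In bulk RNA, fewer cells that express a gene and less RNA per cell cannot be told apart.

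NF-kB is a family of dimeric transcription factors that inhibitor proteins of the IkB family hold in the cytoplasm until a receptor signal releases them. Tumour necrosis factor, interleukin 1 and Toll-like receptors are the best known triggers, and the released dimers switch on cytokine, chemokine and survival genes together with their own inhibitors. In the liver the pathway is known for its link between inflammation, the acute-phase response and cancer, and interleukin 6 acts there through a partner route of JAK kinases and STAT3. TREM1 is a receptor of myeloid cells that amplifies such signals through the adaptor protein TYROBP, and tumour cells are not its usual site.

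The libraries held 16970486 to 18209213 reads assigned to genes. A level is given as CPM, the count of a gene scaled to a common library size. An amount of 3 counts, equal to 0.165 to 0.177 CPM, was taken as the detection limit, which covers counting error only. Of 10 hepatocyte markers, ALB, APOB, TTR and AFP had 0 counts in all 9 libraries, while the epithelial keratins KRT8 and KRT18 averaged 1670 to 3198 and 1420 to 2549 CPM per line and carried nearly all of the list's sum of 2989 to 6377 CPM. SERPINA1, a protease inhibitor made by the liver, averaged 0.0562 CPM in MHCC97L, 1.09 in MHCC97L-OXA and 0.789 in MHCC97L-SRC. MHCC97L replicate 1 stood apart from the other libraries of its line. Across genes, its deviation from the mean of the 9 libraries followed GC content with a Spearman's rho of -0.786, against -0.256 to 0.703 in the other 8 libraries. Genes of low GC content were therefore read more, and genes of high GC content less, in that library. The members followed this pattern too. Of the 10 members under 45% GC, 8 were higher in MHCC97L replicate 1 than the mean of replicates 2 and 3, against 5 of 20 members at or above 45%. The median log2 ratio, on CPM + 0.5, was 1.01 in the former and -0.52 in the latter. For this reason values without MHCC97L replicate 1, and values fitted with offsets for GC content and transcript length, are given beside results that they change.

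**Figure D1:**
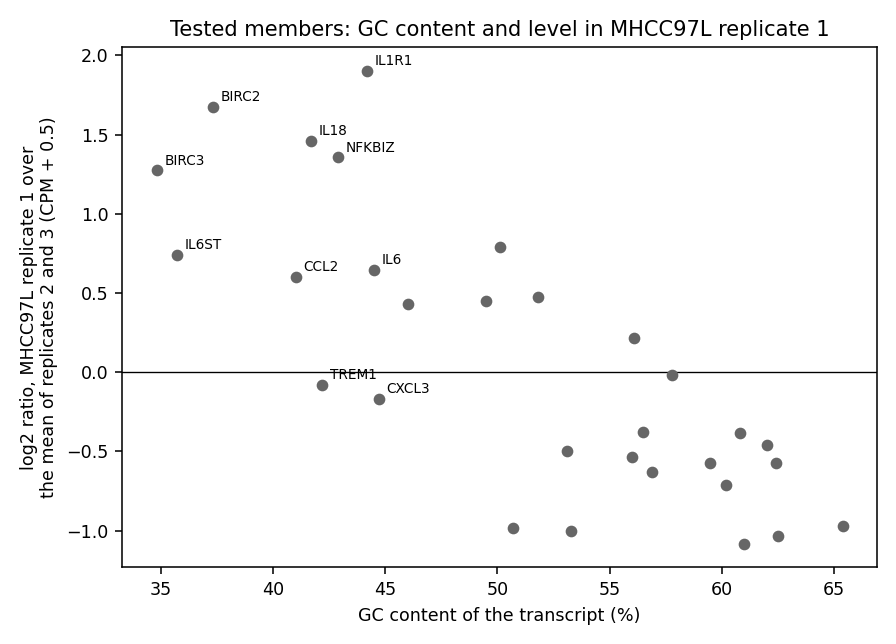
Each point is 1 of the 30 members that passed the filter on low counts, with the GC content of its transcript in percent on the x axis and, on the y axis, the log2 ratio of its level in MHCC97L replicate 1 to the mean of replicates 2 and 3 (CPM + 0.5). Members under 45% GC are named, and 8 of these 10 lie above 0, while 5 of the other 20 do.

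Differences between lines were tested on the counts with edgeR's quasi-likelihood test and Benjamini-Hochberg adjustment over all genes tested. "Rose" and "fell" are used below of genes with an adjusted p under 0.05. A weaker criterion, which asks for a p under 0.05 before adjustment and a log2 fold change beyond 1 in either direction, is named as such. In MHCC97L-SRC against MHCC97L, 30 members passed the filter on low counts and 2 rose, TREM1 and LCN2, while none fell. Both passed the filter only through the line in which they were high and so had to be higher to be tested, as TREM1 did in MHCC97L-OXA, and their number is not read against the share of all genes. In the same comparison 2.13% of all 12037 genes tested passed that threshold, 1.43% as higher and 0.698% as lower. The weaker criterion took in 7 higher and 5 lower members, beside 5.74% of all genes tested that were higher and 18.9% that were lower by it. TREM1, LCN2 and CCL5 are among the higher ones and passed the filter only through MHCC97L-SRC. The number of higher members is therefore not read against that share. In MHCC97L-OXA against MHCC97L, 29 members were tested and TREM1 alone rose, beside 0.953% of all 12064 genes (0.771% higher and 0.182% lower). The weaker criterion was met by 4 higher and 5 lower members, with 4.63% and 11.5% of all genes. TREM1 and CCL5 are among the higher ones and passed the filter only through MHCC97L-OXA, so the same limit holds. In MHCC97L-SRC against MHCC97L-OXA, 30 members were tested and 4 differed, where 4.64% of all 11994 genes did (2.12% higher and 2.52% lower). IL6R and C3 were higher in MHCC97L-SRC, and TREM1 and IL11 were higher in MHCC97L-OXA. The weaker criterion was met there by 2 higher members, IL6R and LCN2, and 3 lower ones, TREM1, IL6 and IL11, in all 5 of 30. By it 4.01% of all genes differed (1.49% higher and 2.52% lower). LCN2 passed the filter there only through MHCC97L-SRC, so the number of higher members is not read against the share.

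The members did not move in a single direction. The median log2 fold change of the tested members was 0.31 for MHCC97L-SRC and 0.05 for MHCC97L-OXA, each against MHCC97L, where the median of all genes tested was -0.16 and -0.19. Between the resistant lines these medians were 0.09 for the members and -0.02 for all genes. Without MHCC97L replicate 1 the members' medians became 0.22 and 0.20 and those of all genes -0.04 and 0.00.

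**Figure D2:**
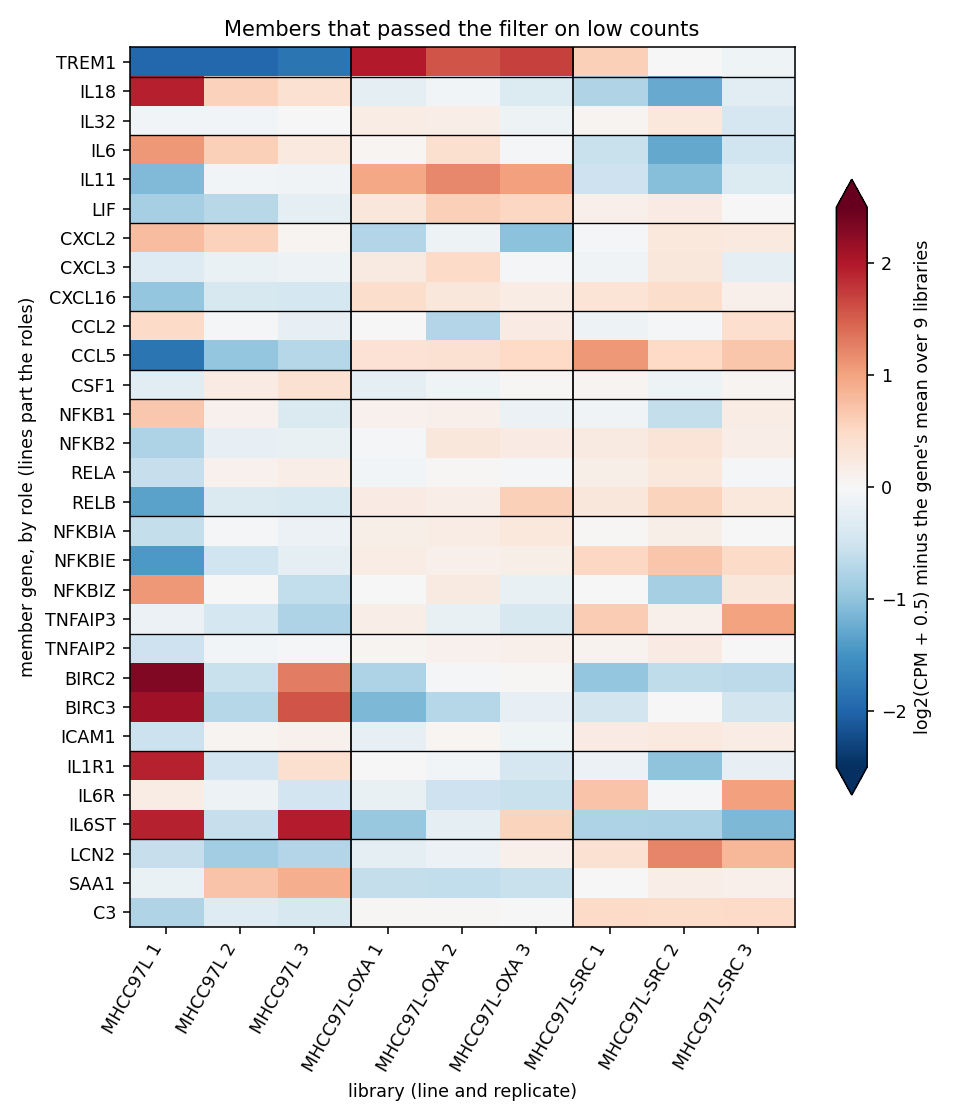
Levels of the 30 members that passed the filter on low counts in at least 1 comparison (rows, in order of role) in the 9 libraries (columns, 3 per line). Colour gives log2(CPM + 0.5) minus the gene's mean over the 9 libraries, red for higher and blue for lower, and TREM1 is blue in the 3 MHCC97L libraries while BIRC2, BIRC3, IL1R1 and IL6ST are red in MHCC97L replicate 1.

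TREM1 (chromosome 6, 41267926 to 41286719 on the minus strand of GRCh38) showed the widest difference among the members. Its transcript was counted 0, 0 and 1 times in the 3 MHCC97L libraries, 131, 96 and 105 times in MHCC97L-OXA and 43, 25 and 23 times in MHCC97L-SRC. These counts are 7.19, 5.36 and 5.91 CPM in MHCC97L-OXA and 2.48, 1.47 and 1.31 CPM in MHCC97L-SRC. The 3 lines did not overlap, with all MHCC97L libraries under the detection limit, MHCC97L-SRC above it and MHCC97L-OXA highest. Set against that limit, TREM1 was at least 36.5-fold higher in MHCC97L-OXA and at least 10.4-fold higher in MHCC97L-SRC. In edgeR's quasi-likelihood test the adjusted p was 0.00898 for MHCC97L-OXA and 0.0139 for MHCC97L-SRC. TREM1 passed the filter on low counts only through the resistant lines, so it had to differ to be tested at all. Its p-values against MHCC97L, here and below, are therefore not read as support.

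The level in MHCC97L-SRC was lower than in MHCC97L-OXA by a log2 fold change of -1.76 ± 0.30 (SE, n = 3, edgeR adjusted p = 0.00964). Without MHCC97L replicate 1 both calls against MHCC97L held in edgeR, at adjusted p of 0.00885 in MHCC97L-SRC and 0.00202 in MHCC97L-OXA. Without MHCC97L replicate 3, the library with the single count, they were lost at adjusted p of 0.0614 and 0.0786. Leaving out any 1 of the 3 MHCC97L-OXA libraries also ended the call in that line, at edgeR adjusted p of 0.0641 to 0.0929, although the counts of the remaining libraries stayed apart from those of MHCC97L.

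Of the genes that relay TREM1 signals, those next to the receptor had no counts. TYROBP, its adaptor, and SYK, the kinase that the adaptor recruits, had 0 counts in all 9 libraries. HCST, a related adaptor, was at 0.224 CPM in MHCC97L, 0.408 in MHCC97L-OXA and 0.425 in MHCC97L-SRC on average. Of the 7 genes of the list of TREM1 adaptors and kinases, 4 were tested in each comparison, PLCG2, CARD9, BCL10 and MALT1. Their line averages were 3.49 to 3.94, 0.628 to 1.05, 7.95 to 11.5 and 3.85 to 13.4 CPM. None of the 4 passed the adjusted threshold. Of all genes tested, 2.13% (MHCC97L-SRC against MHCC97L), 0.953% (MHCC97L-OXA against MHCC97L) and 4.64% (between the resistant lines) did, so this is not read as a result.

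Among the 11 myeloid markers, PTPRC, LYZ, TYROBP and CD163 had 0 counts in all 9 libraries. S100A9, an antimicrobial calcium-binding protein of neutrophils and stressed epithelia, rose from 0.668 to 0.850 CPM in the MHCC97L libraries to 13.1 to 14.1 CPM in MHCC97L-OXA and 35.5 to 39.1 CPM in MHCC97L-SRC. CD14, a co-receptor for bacterial lipopolysaccharide, rose from a mean of 1.01 CPM in MHCC97L to 4.77 in MHCC97L-OXA and 5.80 in MHCC97L-SRC. The summed level of the 11 markers was 60.6 to 94.3 CPM in MHCC97L, 171 to 174 CPM in MHCC97L-OXA and 121 to 138 CPM in MHCC97L-SRC, most of it from CD68, a lysosomal protein that averaged 67.3, 145 and 82.6 CPM in these lines. The sums stood in the same order as the TREM1 counts, but S100A9 and CD14 were highest in MHCC97L-SRC, and CSF1R, a receptor of macrophages, was highest in MHCC97L (11.7 CPM, against 7.48 in MHCC97L-OXA and 2.40 in MHCC97L-SRC). The defining leukocyte gene PTPRC was at 0 throughout.

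**Figure D3:**
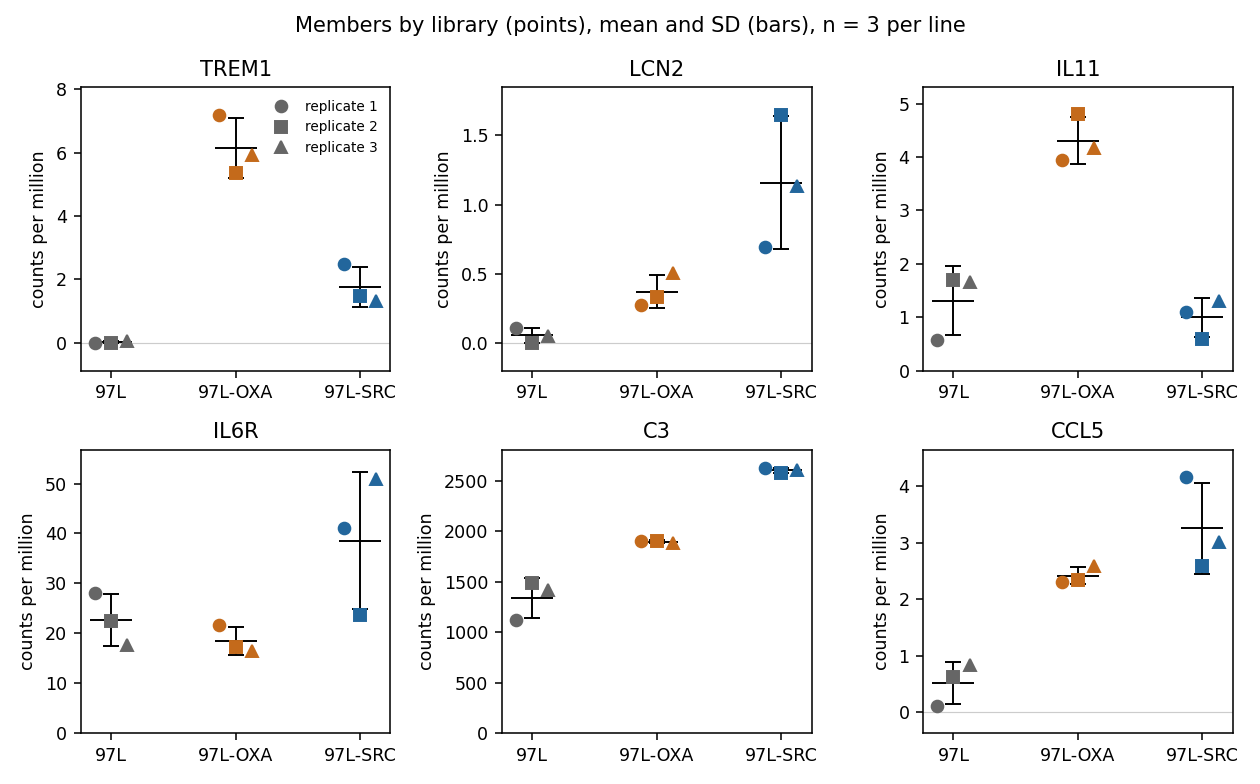
CPM of TREM1, LCN2, IL11, IL6R, C3 and CCL5 in each library, with points for libraries (the shape gives the replicate), a horizontal bar for the mean and whiskers for the SD, n = 3 per line. On the x axis 97L stands for MHCC97L. TREM1 is near 0 in MHCC97L and highest in MHCC97L-OXA, the 3 MHCC97L-OXA points of IL11 lie above all others, and C3 averages 1340 CPM in MHCC97L, 1895 in MHCC97L-OXA and 2602 in MHCC97L-SRC.

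The interleukin 1 family was thinly expressed apart from IL18. IL1A and IL1B, which encode the main pyrogenic forms of interleukin 1, had at most 4 and 11 counts in any library and were not tested. IL32, a cytokine of epithelial and natural killer cells, had 9 to 19 counts in all 9 libraries and differed in no comparison. IL18 encodes a cytokine that caspase 1 activates and that drives interferon gamma. It was counted 1638, 633 and 559 times in MHCC97L, 369, 403 and 331 times in MHCC97L-OXA and 239, 163 and 341 times in MHCC97L-SRC. All libraries of both resistant lines lay under all MHCC97L libraries, with MHCC97L replicate 1 far above its own line. IL18 met the weaker criterion in MHCC97L-SRC (log2 fold change -1.81 ± 0.45, edgeR adjusted p = 0.0820) and in MHCC97L-OXA (-1.33 ± 0.40, adjusted p = 0.170). Without MHCC97L replicate 1 the log2 fold changes were -1.19 and -0.66, with edgeR adjusted p of 0.0514 and 0.0249. With the GC and length offsets they were -0.96 and -0.71, short of the weaker criterion (edgeR adjusted p of 0.0565 and 0.0963).

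Members of the interleukin 6 family have receptors that all use the signalling chain gp130. No member passed the adjusted threshold against MHCC97L, and between the resistant lines IL11 alone did. IL6, the main inducer of the acute-phase response, was counted 138, 97 and 75 times in MHCC97L, 65, 84 and 59 times in MHCC97L-OXA and 38, 19 and 40 times in MHCC97L-SRC. Its counts in MHCC97L-SRC lay under those of all other libraries, while those of MHCC97L-OXA and MHCC97L overlapped. In MHCC97L-SRC the log2 fold change against MHCC97L was -1.57 ± 0.47, by the weaker criterion only (edgeR adjusted p = 0.105). It was -1.03 with the offsets (edgeR adjusted p = 0.0834), and without MHCC97L replicate 2 its adjusted p was 0.0401. The same held against MHCC97L-OXA (edgeR adjusted p = 0.106).

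IL11 (chromosome 19, 55364389 to 55370463, minus strand) encodes a gp130 cytokine known from fibrosis and epithelial tumours. Its counts were 10, 30 and 30 in MHCC97L, 72, 86 and 74 in MHCC97L-OXA and 19, 10 and 23 in MHCC97L-SRC. MHCC97L-OXA lay above all other libraries, and MHCC97L-SRC overlapped with MHCC97L. Set against MHCC97L-OXA, MHCC97L-SRC had a log2 fold change of -2.06 ± 0.32 (edgeR adjusted p = 0.00538). Against MHCC97L, IL11 was higher in MHCC97L-OXA by a log2 fold change of 1.70 ± 0.52 with an edgeR adjusted p of 0.170, which became 0.0212 without MHCC97L replicate 1 (log2 fold change 1.41) and 0.0249 with the offsets (1.38).

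LIF, another gp130 cytokine that sustains stem cells, was higher in all libraries of the resistant lines than in those of MHCC97L. It was counted 165, 181 and 260 times in MHCC97L, 375, 460 and 435 times in MHCC97L-OXA and 322, 334 and 299 times in MHCC97L-SRC. The log2 fold change of 1.06 ± 0.33 in MHCC97L-OXA met the weaker criterion (edgeR adjusted p = 0.177), and without MHCC97L replicate 1 it was 0.99 with an adjusted p of 0.0229. With the offsets it was 0.61, short of the weaker criterion (edgeR adjusted p = 0.121).

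Of the cytokine receptors, IL6R differed between the resistant lines. IL6R (chromosome 1, 154405193 to 154469450, plus strand), the interleukin 6 binding chain, gave 711, 403 and 896 counts in MHCC97L-SRC, 394, 309 and 294 in MHCC97L-OXA and 495, 400 and 317 in MHCC97L. All MHCC97L-SRC libraries lay above those of MHCC97L-OXA, although replicate 2 did so narrowly and fell within the range of MHCC97L. The difference between the resistant lines was a log2 fold change of 1.10 ± 0.24 (edgeR adjusted p = 0.0278). Leaving out MHCC97L-SRC replicate 1 or any 1 MHCC97L-OXA library ended this call, at edgeR adjusted p of 0.0627 to 0.163.

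IL6ST encodes gp130 itself. Its counts were 685, 114 and 714 in MHCC97L, 88, 149 and 263 in MHCC97L-OXA and 96, 93 and 75 in MHCC97L-SRC. MHCC97L was uneven, with replicate 2 close to the resistant lines, and only MHCC97L-SRC lay wholly below it. The log2 fold change of -2.37 ± 0.64 in MHCC97L-SRC met the weaker criterion (edgeR adjusted p = 0.0913) and shrank to -0.84 with the offsets for GC content and length (adjusted p = 0.192). IL1R1, the signalling receptor of interleukin 1, was counted 153, 22 and 48 times in MHCC97L and 12 to 35 times in the resistant lines, and met neither criterion.

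Tumour necrosis factor genes had very few counts. TNF had at most 3 counts and LTB, a lymphotoxin chain, at most 3 counts in any library, so neither was tested. The CXC chemokines, which mostly attract neutrophils and lymphocytes, were low as well. CXCL5 and CXCL6 had 0 counts in all 9 libraries, and CXCL10, CXCL8 and CXCL1 had at most 2, 9 and 12. CXCL1, CXCL2 and CXCL3 are closely related genes, so the split of reads among them is uncertain. CXCL2 gave 119, 103 and 71 counts in MHCC97L, 37, 60 and 28 in MHCC97L-OXA and 63, 78 and 79 in MHCC97L-SRC. MHCC97L-OXA lay below the other lines, with a log2 fold change of -1.23 ± 0.44 against MHCC97L (edgeR adjusted p = 0.201, the weaker criterion only). The offsets brought it to -0.99 (edgeR adjusted p = 0.110), short of that criterion, and it was -1.03 without MHCC97L replicate 1. CXCL3 was at 10 to 24 counts and met no criterion. CXCL16, a membrane-bound scavenger receptor and chemokine, was counted 126 to 190 times in MHCC97L and 275 to 356 times in the resistant lines, just under the size limit of the weaker criterion with log2 fold changes of 0.99 ± 0.39 and 0.92 ± 0.35.

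Of the CC chemokines, which attract monocytes and T cells, CCL5 (chromosome 17, 35871491 to 35880793, minus strand) differed most. It was counted 2, 11 and 15 times in MHCC97L, 42, 42 and 46 times in MHCC97L-OXA and 72, 44 and 53 times in MHCC97L-SRC. No library of a resistant line overlapped with MHCC97L, and MHCC97L replicate 1 was the lowest of all. Its log2 fold change reached 2.66 ± 0.67 in MHCC97L-SRC and 2.18 ± 0.63 in MHCC97L-OXA, by the weaker criterion (edgeR adjusted p of 0.0834 and 0.162). Without MHCC97L replicate 1 these became 2.21 and 1.78, with edgeR adjusted p of 0.0334 and 0.0191. With the offsets they were 2.47 and 2.01 (edgeR adjusted p of 0.0294 and 0.0445). In fits on all 6 libraries CCL5 passed the filter on low counts only through the resistant lines. MHCC97L replicate 1, at 2 counts, was under the minimum of 10. The p-values of those fits are therefore not read as support. CCL2 had 16 to 48 counts with no difference by either criterion, and CCL20 had at most 1. Among colony-stimulating factors, CSF1, the macrophage growth factor, had 306 to 498 counts in all libraries, while CSF2 and CSF3 had at most 1 and 2.

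**Figure D4:**
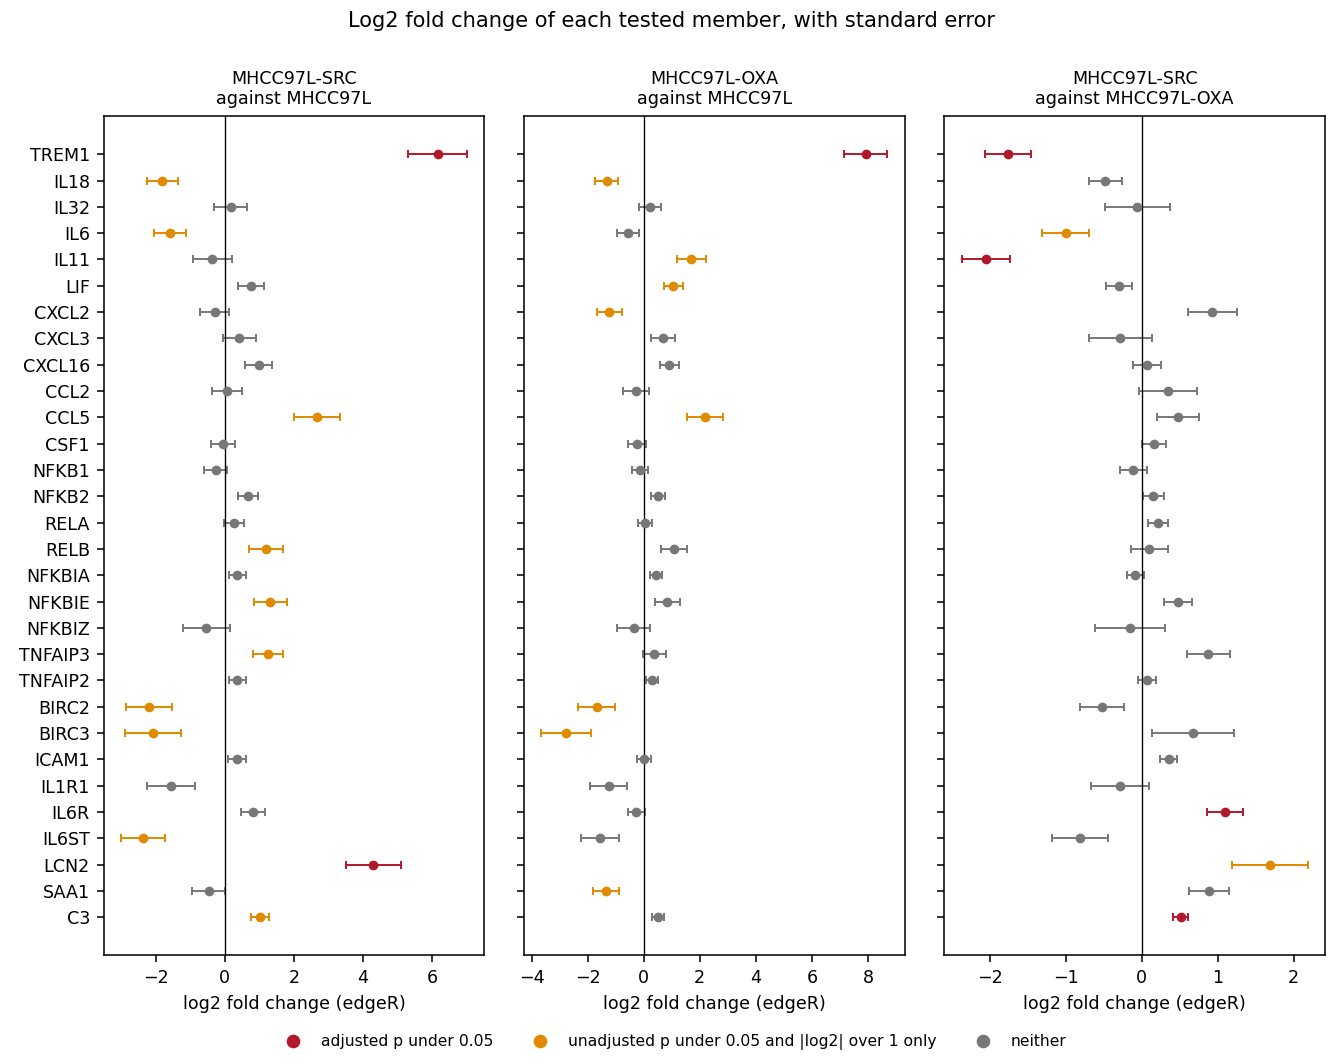
Log2 fold change (points, x axis) with its standard error (whiskers) of each tested member (y axis, in order of role) in the 3 comparisons, n = 3 libraries per line, by edgeR. Red points have an adjusted p under 0.05 (TREM1 and LCN2 in the left panel, TREM1 in the middle, TREM1, IL11, IL6R and C3 on the right), orange points meet the weaker criterion only and grey points neither; the axes differ between panels.

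The NF-kB subunits were expressed in all lines and none passed the adjusted threshold. RELA, which carries the activation domain of the classical dimer, gave 2163, 3499 and 3679 counts in MHCC97L and 3120 to 3735 in the resistant lines, with log2 fold changes of 0.26 ± 0.29 in MHCC97L-SRC and 0.05 ± 0.26 in MHCC97L-OXA. NFKB1, its p50 partner, had log2 fold changes of -0.26 ± 0.32 and -0.15 ± 0.29. NFKB2 and RELB form the dimer of the alternative pathway. NFKB2 was counted 666, 996 and 1018 times in MHCC97L and 1135 to 1400 times in the resistant lines. RELB gave 25, 58 and 58 counts in MHCC97L, 92, 89 and 122 in MHCC97L-OXA and 93, 113 and 94 in MHCC97L-SRC. Neither overlapped between MHCC97L and the resistant lines, and both were lowest in MHCC97L replicate 1. RELB met the weaker criterion in MHCC97L-SRC with a log2 fold change of 1.19 ± 0.50 (edgeR adjusted p = 0.157), which was 0.90 without MHCC97L replicate 1 and 0.77 with the GC and length offsets.

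The inhibitors that NF-kB switches on in its own feedback were also examined. NFKBIA, the classical IkB, was abundant at 2324, 3436 and 3192 counts in MHCC97L and 3494 to 4230 in the resistant lines, with log2 fold changes of 0.36 ± 0.25 in MHCC97L-SRC and 0.44 ± 0.23 in MHCC97L-OXA. NFKBIE, a further IkB, was counted 56, 116 and 144 times in MHCC97L, 197, 187 and 188 times in MHCC97L-OXA and 238, 263 and 235 times in MHCC97L-SRC. The 3 lines did not overlap, and MHCC97L replicate 1 was again the lowest. Its log2 fold change of 1.32 ± 0.47 in MHCC97L-SRC met the weaker criterion (edgeR adjusted p = 0.126) and was 1.00 with the GC and length offsets (adjusted p = 0.0470).

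TNFAIP3 encodes A20, the ubiquitin-editing enzyme that ends NF-kB signals. It gave 58, 46 and 35 counts in MHCC97L, 76, 57 and 47 in MHCC97L-OXA and 103, 69 and 138 in MHCC97L-SRC. MHCC97L-SRC lay above MHCC97L, while MHCC97L-OXA overlapped with both other lines. The log2 fold change in MHCC97L-SRC was 1.25 ± 0.44 (edgeR adjusted p = 0.122, the weaker criterion), and 1.48 with the GC and length offsets (adjusted p = 0.0102). NFKBIZ, an atypical nuclear IkB, gave 48, 18 and 9 counts in MHCC97L and 6 to 24 in the resistant lines.

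Among the other NF-kB targets, 2 were abundant and 2 were uneven between libraries. TNFAIP2, a target in endothelial and myeloid cells, was counted 4712 to 7476 times and ICAM1, the adhesion molecule for leukocytes, 2393 to 3952 times, and neither differed by either criterion. BIRC2 and BIRC3 encode the cellular inhibitors of apoptosis cIAP1 and cIAP2 and lie side by side on chromosome 11. BIRC2 gave 567, 70 and 278 counts in MHCC97L, 61, 106 and 110 in MHCC97L-OXA and 50, 63 and 65 in MHCC97L-SRC. BIRC3 gave 110, 8 and 74 counts in MHCC97L, 4, 8 and 15 in MHCC97L-OXA and 11, 18 and 11 in MHCC97L-SRC. For both genes MHCC97L replicates 1 and 3 were high and replicate 2 lay at the level of the resistant lines. The weaker criterion was met by BIRC2 in MHCC97L-SRC (log2 fold change -2.20 ± 0.67) and MHCC97L-OXA (-1.68 ± 0.67), and by BIRC3 (-2.08 ± 0.81 and -2.77 ± 0.89).

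Together with IL6ST (35.7% GC), BIRC2 (37.3%) and BIRC3 (34.8%) have the lowest GC content of the members tested. With the GC and length offsets the log2 fold changes of BIRC2 became -0.66 in MHCC97L-SRC and -0.51 in MHCC97L-OXA, and those of BIRC3 -0.45 and -1.56 (edgeR adjusted p of 0.106 to 0.591 over the 4). Without MHCC97L replicate 2 the same genes fell in both lines, at edgeR adjusted p of 0.00232 to 0.0153.

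**Figure D5:**
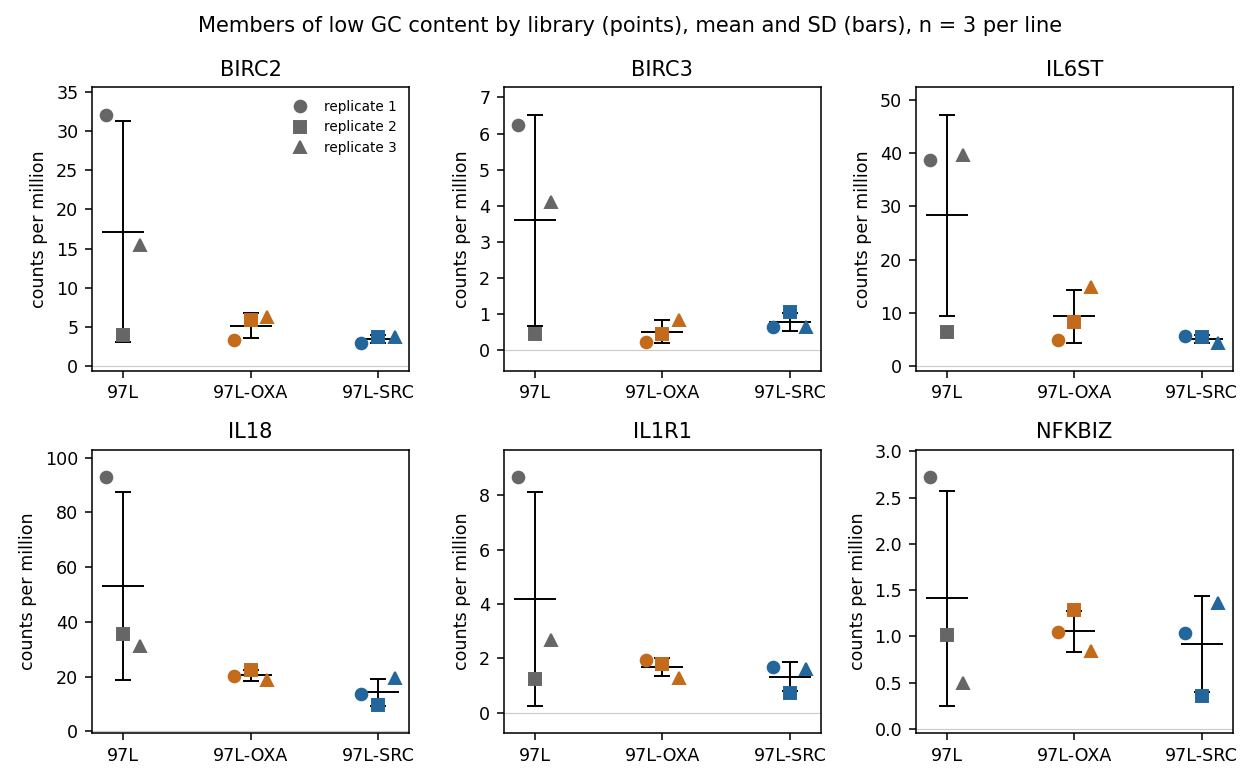
CPM of 6 of the 10 tested members under 45% GC (the 6 span 34.8% to 44.2%) in each library, with points for libraries (the shape gives the replicate), a horizontal bar for the mean and whiskers for the SD, n = 3 per line. On the x axis 97L stands for MHCC97L. TREM1, CCL2, IL6 and CXCL3, also under 45%, are not drawn. Their log2 ratios of MHCC97L replicate 1 to the mean of replicates 2 and 3 were -0.078, 0.6, 0.645 and -0.17. MHCC97L replicate 1 (circle) is the highest or, for IL6ST, the second highest point of each panel, and MHCC97L replicate 2 (square) of BIRC2, BIRC3 and IL6ST lies among the resistant lines.

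The acute-phase and innate proteins held the most abundant member, C3 (chromosome 19, 6677704 to 6730562, minus strand), the central component of complement. By the authors' FPKM, which divides by transcript length, C3 was at 147 in MHCC97L, 208 in MHCC97L-OXA and 280 in MHCC97L-SRC on average, ahead of NFKBIA at 74.7, 103 and 91.1. It was counted 19729, 26412 and 25434 times in MHCC97L, 34660, 34127 and 33376 times in MHCC97L-OXA and 45440, 43760 and 45798 times in MHCC97L-SRC. The 3 lines did not overlap. The difference between the resistant lines was a log2 fold change of 0.51 ± 0.10 (edgeR adjusted p = 0.0156). Against MHCC97L it was 1.02 ± 0.26 in MHCC97L-SRC, by the weaker criterion (edgeR adjusted p = 0.0834), and 0.90 with an adjusted p of 0.0157 without MHCC97L replicate 1. With the offsets it was 0.84 (edgeR adjusted p = 0.00493). The call between the resistant lines was lost without MHCC97L-SRC replicate 1 or any 1 MHCC97L-OXA library, at edgeR adjusted p of 0.0868 to 0.147.

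LCN2 (chromosome 9, 128149071 to 128153455, plus strand) encodes lipocalin 2, which binds the iron carriers of bacteria. It gave 2, 0 and 1 counts in MHCC97L, 5, 6 and 9 in MHCC97L-OXA and 12, 28 and 20 in MHCC97L-SRC. The 3 lines did not overlap, at a low level in each. LCN2 was at least 6.88-fold higher in MHCC97L-SRC than in MHCC97L (edgeR adjusted p = 0.0327) and at least 2.21-fold higher in MHCC97L-OXA, where it did not pass the filter on low counts and was not tested. It passed that filter only through MHCC97L-SRC, so its p-values against MHCC97L are not read as support. Without MHCC97L replicate 1 the edgeR adjusted p was 0.0203, but without MHCC97L replicate 3 or MHCC97L-SRC replicate 2 or 3 it was 0.0997 to 0.135 and the call was lost. SAA1, the main acute-phase apolipoprotein, gave 46, 93 and 109 counts in MHCC97L, 33, 32 and 33 in MHCC97L-OXA and 52, 58 and 58 in MHCC97L-SRC. MHCC97L-OXA lay below both other lines, with a log2 fold change of -1.35 ± 0.46 against MHCC97L (edgeR adjusted p = 0.196, the weaker criterion), which was -1.58 without MHCC97L replicate 1 (adjusted p = 0.0116) and -1.50 with the offsets (adjusted p = 0.0396). SAA2, a near-identical copy of SAA1, had at most 2 counts, and the split of reads between the copies is uncertain.

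All 4 calls between the resistant lines (TREM1, IL11, IL6R and C3) rested on the spread within those 2 lines. When all 9 libraries shared a single estimate of the spread, their log2 fold changes were -1.75, -2.06, 1.10 and 0.52 but their edgeR adjusted p rose to 0.144 to 0.521. TREM1 and IL11 remained under 0.05 when any 1 of the 6 libraries was left out.

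The genes around the members were read from 7 lists of 70 pathway genes. In MHCC97L-SRC against MHCC97L, 43 were tested and 2 rose, where 1.43% of all genes tested did. SOCS3, the feedback inhibitor of gp130 and STAT3 signals, went from 973, 1471 and 1429 counts in MHCC97L to 4950, 5738 and 4795 in MHCC97L-SRC (log2 fold change 2.11 ± 0.28, edgeR adjusted p = 0.0124). CXCR4, the receptor of CXCL12, went from 1426, 1445 and 992 to 3899, 2810 and 5056 counts (1.70 ± 0.26, edgeR adjusted p = 0.0190). No library of MHCC97L-SRC overlapped with MHCC97L in either gene.

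In MHCC97L-OXA against MHCC97L, 44 were tested and 2 rose, where 0.771% of all genes tested did. SOCS3 was counted 4380, 4221 and 3886 times (log2 fold change 1.68 ± 0.24, edgeR adjusted p = 0.0282). CFB, complement factor B, went from 520, 511 and 387 counts to 1377, 1170 and 1165 (1.39 ± 0.24, edgeR adjusted p = 0.0428). Between the resistant lines 4 of 43 genes differed, where 4.64% of all genes tested did. Counts this small are not read as a result about the lists. MAP3K14, the NF-kB-inducing kinase of the alternative pathway, was higher in MHCC97L-SRC (log2 fold change 0.84 ± 0.14, edgeR adjusted p = 0.00904). SERPINA3, an acute-phase protease inhibitor (-2.00 ± 0.39), CSF1R, the receptor of CSF1 (-1.57 ± 0.29), and IL1RAP, the shared chain of interleukin 1 receptors (-1.21 ± 0.27), were lower, with edgeR adjusted p of 0.0135 to 0.0324.

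The signal transducers of tumour necrosis factor and interleukin 1 receptors held no call against MHCC97L among 13 tested, and the list of the IKK complex, REL and other regulators none among 9. Of all genes tested, 2.13% were called in MHCC97L-SRC and 0.953% in MHCC97L-OXA, so no result about these lists is read from this. CHUK, which encodes the kinase IKK alpha, gave 434, 30 and 110 counts in MHCC97L and 14 to 60 in the resistant lines, so that MHCC97L replicate 2 lay among them. JAK1, which relays gp130 signals, gave 3932, 419 and 1079 counts in MHCC97L and 244 to 635 in the resistant lines.

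The sequence before the start of transcription was read for 31 of the 43 members from RefSeq (GRCh38.p14). The 250 bases upstream of the start were searched on both strands for a form of the NF-kB site that reads GGG, any pair of bases, TT, any single base and CC. It stood in 15 of the 31 members (48.4%) and in 5.08% of 27305 genes. The members were chosen for their role, NF-kB targets among them, so the higher share lies in that choice and is not read as a result. The letters TGANTCA, where N is any base, are a form of the AP-1 site that reads alike on both strands and stood in 4 members (12.9%) and in 6.6% of genes. No other motif was searched, and overlap with the sites of other factors was not examined. Of the 15 members with the first form, 9 were tested against MHCC97L in each resistant line. By edgeR's test on the 6 libraries of each comparison none passed the adjusted threshold, and their median log2 fold changes were -0.26 (MHCC97L-SRC) and -0.15 (MHCC97L-OXA). Of all genes tested, 2.13% and 0.953% passed it, so none among 9 is not read as a result. Other settings did call some of them, such as TNFAIP3 with the offsets and IL6 and BIRC3 without MHCC97L replicate 2. The 16 members without it had medians of 0.36 (11 tested) and 0.03 (10 tested). They held TREM1 and LCN2, which had to be higher to be tested against MHCC97L, and TREM1 entered both medians and LCN2 the first. IL11 and IL6R, also among the 16, had a call only between the resistant lines. The members with and without the form are therefore not compared. The promoters of IL18, LIF, CXCL16, CCL2, CCL5, CSF1, CSF3, RELB, NFKBIE, SAA1, SAA2 and C3, the last of which had a call, were not analysed here.

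The following stretches of members with a call are shown because they lack the searched NF-kB form, with capitals for the AP-1 form where present. Other forms of the NF-kB site were not searched, so these stretches may hold them. The LCN2 stretch reads gggaatgtcc near its start, with TG where the searched form has TT. Bases within GENCODE exons were cut from the TREM1 and LCN2 stretches, and none from that of IL11. IL6R, which also had a call and lacks the searched form, is not shown. The 3 stretches lie at chr6:41286720-41286882 on the minus strand for TREM1, chr9:128149265-128149440 on the plus strand for LCN2 and chr19:55370464-55370663 on the minus strand for IL11.
TREM1: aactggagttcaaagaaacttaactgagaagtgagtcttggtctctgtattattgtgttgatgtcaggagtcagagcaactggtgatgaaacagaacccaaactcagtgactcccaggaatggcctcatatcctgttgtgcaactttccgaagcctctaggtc
LCN2: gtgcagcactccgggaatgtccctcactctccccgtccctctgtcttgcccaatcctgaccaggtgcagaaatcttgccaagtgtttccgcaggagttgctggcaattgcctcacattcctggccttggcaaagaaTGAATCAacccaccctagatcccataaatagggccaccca
IL11: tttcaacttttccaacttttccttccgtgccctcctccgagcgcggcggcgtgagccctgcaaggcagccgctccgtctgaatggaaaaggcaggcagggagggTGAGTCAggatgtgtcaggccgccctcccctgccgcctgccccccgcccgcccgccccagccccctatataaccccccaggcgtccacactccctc

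Members with the NF-kB form, in capitals, are shown for contrast: the feedback inhibitor NFKBIA, A20 (TNFAIP3), IL6 and BIRC3, together with CXCL2 and CXCL3, whose stretches show how alike these related genes are. They lie at chr14:35404796-35404855 (minus strand), chr6:137867182-137867211 (plus), chr7:22727102-22727146 (plus), chr11:102317260-102317319 (plus), chr4:74099254-74099283 (minus) and chr4:74038749-74038778 (minus), in that order. Although these stretches lie upstream of the RefSeq start, by GENCODE release 29 all 30 bases of the CXCL2 and of the CXCL3 stretch and 24 of the 30 bases of the TNFAIP3 stretch lie within exons.
NFKBIA: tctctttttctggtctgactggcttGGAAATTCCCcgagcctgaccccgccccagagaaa
TNFAIP3: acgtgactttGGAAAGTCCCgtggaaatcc
IL6: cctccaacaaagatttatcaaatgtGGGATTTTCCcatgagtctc
BIRC3: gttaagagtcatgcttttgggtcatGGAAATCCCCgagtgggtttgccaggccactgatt
CXCL2: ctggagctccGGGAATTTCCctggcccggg
CXCL3: ctggagctccGGGAATTTCCctggcccggc
A match is a description of the letters and not of a bound site. By the test on all 6 libraries of a comparison, none of these 6 members passed the adjusted threshold, with TNFAIP3 among the higher members of the weaker criterion and IL6, BIRC3 and CXCL2 among the lower ones. With so few members this is not read as a result.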

How the data were processed

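RNA of 9 libraries, 3 per line, was sequenced from both ends after poly(A) selection with a stranded kit. The authors deposited raw read counts per gene, and FPKM values per gene that normalize for transcript length and library size. The submitters' processing notes name Trimmomatic 0.36, HISAT2 and the build GRCh38.p12. The counting program was not given in the sources used here. In each library 245 to 297 genes with a count were listed at an FPKM of 0, so FPKM served only for levels between genes and as an alternative.

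Libraries were grouped by line from their labels. Genes were kept by edgeR's filterByExpr (minimum count 10), scaled by TMM and tested by edgeR's quasi-likelihood method within the 6 libraries of a comparison, with Benjamini-Hochberg adjustment. CPM used library totals of 16970486 to 18209213. Standard errors are the log2 fold change over the square root of F. Gene positions and GC content came from GENCODE release 29 (GC for 19343 genes and all 43 members), and promoters from RefSeq. GC and length offsets used splines with 5 degrees of freedom. The alternatives were DESeq2's Wald test, DESeq2 size factors, no filter, the replicate block, all 9 libraries in 1 fit, limma-trend on FPKM at a pseudocount of 1 or 0.1 before log2, the offsets, and leaving out each library.

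The members, gene lists and tests were chosen with earlier results of these data known. By rule, counts of each library were given for members with an adjusted p under 0.05, or a p under 0.05 before adjustment with a log2 fold change beyond 1, in any comparison, and pathway genes were named at an adjusted p under 0.05. CHUK, JAK1, HCST, PLCG2, CARD9, BCL10, MALT1, TYROBP, SYK, KRT8, KRT18, SERPINA1, S100A9, CD14, CD68 and values of members that met neither criterion were added after their values were seen. Scripts were tested on simulated data. The fits ran in R 4.3.3 with DESeq2 1.42.0, edgeR 4.0.16 and limma 3.58.1, and the tables in Python 3.11.15 with matplotlib 3.10.9 and pandas 2.3.3.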

Additional observations from a re-analysis of the deposited data

Results flagged for a closer look

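The effects of the 2 resistant lines, each measured against the same MHCC97L libraries, differed for 4 members by the direct edgeR quasi-likelihood test between the lines. The log2 fold change of MHCC97L-SRC minus that of MHCC97L-OXA was -1.76 for TREM1, which was higher than MHCC97L in all 6 resistant libraries, and -2.06 for IL11, which was lower than MHCC97L-OXA in 3 of 3 MHCC97L-SRC libraries. It was 1.10 for IL6R and 0.51 for C3, each higher in 3 of 3 MHCC97L-SRC libraries than in any of MHCC97L-OXA. With 3 libraries a line, no test was run for a library standing far from its group in a single gene.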

How the results depend on the processing

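Depth limits the low members: 13 of the 43 had under 15 counts in every library, and 9 at most 3, so a difference in them was not detectable. The labels do not state whether the replicate numbers pair libraries. Deviations of same-numbered libraries correlated at -0.631 to 0.417 across genes, which does not settle it.

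The shares of all genes called under the alternatives are not given here for any comparison. The counts below therefore do not tell whether the members gained or lost calls more than all genes did. In MHCC97L-SRC against MHCC97L, 2 members were called by edgeR at an adjusted p under 0.05. The count was 11 with DESeq2, 5 without a filter, 11 with all 9 libraries in 1 fit, 1 with limma-trend on log2(FPKM + 1) with or without a filter and 7 with GC and length offsets. Leaving out 1 library gave 0 (MHCC97L replicate 3) to 10 (MHCC97L replicate 2). The 12 members of the weaker criterion became 4 and 6 with limma-trend on log2(FPKM + 1) and log2(FPKM + 0.1), 3 without its filter and 5 with the offsets, and 8 to 14 when 1 library was left out. The 2 pathway genes became 9 with DESeq2, 4 without a filter, 8 in the fit of 9 libraries, 4 with limma-trend at either offset and 8 with GC and length offsets, and 0 to 20 when 1 library was left out. The median of 0.31 became 0.036 with limma-trend without a filter and 0.14 with the offsets, and 0.15 to 0.48 when 1 library was left out.

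In MHCC97L-OXA against MHCC97L, 1 member was called. The count was 4 with DESeq2, 0 with limma-trend on log2(FPKM + 0.1), where TREM1 did not pass the filter, 2 with log2(FPKM + 1) without a filter and 6 with the offsets, and 0 to 9 when 1 library was left out. Leaving out MHCC97L replicate 1 gave the 9, and leaving out its replicate 3 or any 1 MHCC97L-OXA library gave the 0. The 9 members of the weaker criterion became 2 with limma-trend on log2(FPKM + 1), filtered or not, and 5 with the offsets, and 5 to 12 when 1 library was left out. The 2 pathway genes became 6 with DESeq2 and 9 with the offsets, and 0 to 16 when 1 library was left out. The median of 0.05 became 0.18 with limma-trend on log2(FPKM + 0.1), and 0.04 to 0.26 when 1 library was left out.

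In MHCC97L-SRC against MHCC97L-OXA, 4 members were called, against 0 in the fit of 9 libraries and 2 with limma-trend on log2(FPKM + 1) without a filter, and 2 to 6 when 1 library was left out. The 5 members of the weaker criterion became 1 with each limma-trend fit, and 4 to 7 when 1 library was left out. The 4 pathway genes became 0 in the fit of 9 libraries, 2 with limma-trend without a filter and 7 with the offsets, and 0 to 9 when 1 library was left out. The median of 0.09 became 0.34 without a filter and -0.005 with the offsets, and 0.032 to 0.195 when 1 library was left out.

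With the replicate number as a block, 5, 1 and 3 members were called in these comparisons, and 5, 1 and 3 pathway genes. With the block and the GC and length offsets together, 1 member was called in MHCC97L-SRC against MHCC97L and 5 met its weaker criterion, 6 pathway genes were called in MHCC97L-OXA, and the medians of MHCC97L-SRC against MHCC97L and against MHCC97L-OXA were 0.150 and -0.014. Of 412 values of the 27 comparisons of single members, 327 kept direction and side of the threshold, 28 lost a call, 57 gained one and 0 reversed. Apart from fits with fewer libraries or genes, the cause of these shifts was not tested.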
